A study of Homo sapiens with 2 samples.

Results

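A total of 392 antisense RNAs were measured in the oral squamous cell carcinoma (OSCC) line Ca9-22 with and without a vector carrying the long noncoding RNA DLEU1. An antisense RNA is read from the strand opposite to another gene, and the suffix -AS1 in its name points to the gene before the hyphen, called the sense partner here. The array held 851 gene names ending in -AS1. Of these, 8 names on chromosome 13 between 46000000 and 55000000 (hg19) were left out, and 392 of the other 843 had a probe that the scanner software marked as well above background on both arrays. The whole array gave 20246 gene names detected on both arrays. Members were thus chosen by the scanner's detection calls on both arrays, so an antisense RNA whose signal was not well above background on 1 array was no member, whatever its difference. Another 37 names were detected on the DLEU1 vector array only, 26 on the control vector array only, 2 on each array by a different probe, and 386 on neither array.

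The 2 groups were Ca9-22 cells infected with a lentiviral vector for DLEU1 (pLenti6/V5-DEST) and Ca9-22 cells infected with the same vector without an insert, the control vector. Both infected populations were kept under blasticidin for 2 weeks at a dose listed as 6 mg/ml, with no other treatment in the labels. Cy3-labelled RNA made from 100 ng of each population was read on 1 Agilent 1-colour array, and both arrays were on the same slide. Each group thus had a single array and no replicate, which limits the precision of every value, and no test could be made. A level is the log2 signal minus the 75th percentile of its array, a difference is the level with the DLEU1 vector minus that with the control vector, and a difference of 1 is 2-fold.

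Many antisense RNAs share a start region with their partner and are transcribed away from it, an arrangement called divergent. Others overlap the partner's end or lie inside it. Well-studied examples act on the chromatin or the RNA of the neighbouring gene, while for most of them no function is known, and divergent transcription is common at active promoters whether or not its product has a role. For this reason the level of such an RNA is often read beside that of its partner, as was done here.

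The vector's own gene, DLEU1, was at 3.17 in control vector cells and at 5.91 in DLEU1 vector cells by its brightest probe, a difference of 2.74, and its detected probes differed by 1.38 on average. Repeat spots of the same probe gave log2 differences with an SD of 0.0800 (282 probes). Different probes of the same antisense RNA gave an SD of 0.486, pooled over 148 antisense RNAs. Variation between cultures enters neither SD. A strip of the DLEU1 vector array (columns 36 to 40, rows 1 to 104) had lost signal, and 2 antisense RNAs and 2 partners took their value from a probe in it. All 7 squamous epithelial markers checked (KRT5, KRT14, KRT6A, TP63, CDH1, EPCAM and SFN) were detected on both arrays, with differences from -0.78 (EPCAM) to 2.91 (KRT6A). Of the 6 fibroblast markers, 1 was detected in control vector cells and 2 in DLEU1 vector cells, with COL1A1 higher by 3.99 and COL1A2, COL3A1, DCN and PDGFRA detected on neither. LUM was the marker detected in DLEU1 vector cells alone. Of 3 endothelial markers VWF was higher by 3.70, CDH5 differed by -0.59 and PECAM1 was detected on neither array. Of the leukocyte markers PTPRC differed by 0.45 and CD14 by -1.60, and CD3E was detected on neither. The part of these markers in the differences below was not tested. In cells measured in bulk, fewer cells of a kind and less RNA per cell cannot be told apart.

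The probes that read the antisense RNAs of 8 of the 13 pairs in which both genes were at least 2-fold different are shown first, because each value below is the light from 60 such bases and because their strand is what tells an antisense RNA from its partner. Each probe is given as the deposited files list it, from 5′ to 3′, with its hg19 position. The probes of TMPO-AS1, OIP5-AS1, MEF2C-AS1, SAPCD1-AS1 and DPP9-AS1 are not printed, because they may overlap an untranslated region. Capitals mark AATAAA, the most common signal for cutting and tailing an RNA, searched on the listed strand only.

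UNC5B-AS1, chr10:72977006-72977065, minus strand: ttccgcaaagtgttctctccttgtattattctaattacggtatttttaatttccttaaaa
ID2-AS1, chr2:8811185-8811244, minus strand: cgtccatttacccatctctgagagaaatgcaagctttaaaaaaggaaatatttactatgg
ID2-AS1, chr2:8813168-8813227, minus strand: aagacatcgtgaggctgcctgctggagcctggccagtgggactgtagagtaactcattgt
NEBL-AS1, chr10:21463786-21463845, plus strand: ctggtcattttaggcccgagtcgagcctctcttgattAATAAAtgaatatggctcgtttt
SLC2A1-AS1, chr1:43448970-43449029, plus strand: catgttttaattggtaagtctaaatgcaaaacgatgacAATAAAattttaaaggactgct
SLC2A1-AS1, chr1:43441758-43441817, plus strand: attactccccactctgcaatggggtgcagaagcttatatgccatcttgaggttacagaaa
FLG-AS1, chr1:152337438-152337497, plus strand: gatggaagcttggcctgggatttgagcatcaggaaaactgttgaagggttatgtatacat
PDCD4-AS1, chr10:112629508-112629567, minus strand: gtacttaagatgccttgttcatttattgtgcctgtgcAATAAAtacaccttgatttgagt
PDCD4-AS1, chr10:112629842-112629901, minus strand: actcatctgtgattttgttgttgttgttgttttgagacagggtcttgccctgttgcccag
DDX11-AS1, chr12:31213664-31226147, minus strand: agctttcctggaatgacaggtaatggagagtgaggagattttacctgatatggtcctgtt
CECR5-AS1, chr22:17646234-17646293, plus strand: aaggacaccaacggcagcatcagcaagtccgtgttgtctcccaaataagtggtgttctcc

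AATAAA stood in 3 of these 11 probes. Over the antisense RNAs it stood in 52 of the 392 probes that gave the value (13.3%), against 8.44% of the 20246 probes that gave the value of any gene name and 7.85% of all 58201 probes. The DDX11-AS1 probe covers 12484 bases of the genome with 60 bases of sequence, so it crosses a splice junction. ID2-AS1, SLC2A1-AS1 and PDCD4-AS1 were each read by a pair of detected probes. For all 302 antisense RNAs with a strand in RefSeq, the probe lay on that strand. In 324 of the 325 pairs in which both genes were detected on both arrays, the probes of the antisense RNA and of its partner lay on opposite strands.

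The antisense RNAs were higher with the DLEU1 vector more often than they were lower. Of the 392, 49 were at least 2-fold higher, or 12.5%, where the share over all gene names was 9.18%. Another 23 were at least 2-fold lower, or 5.87%, where the share over all gene names was 9.78%. The median difference of the antisense RNAs was 0.13, and that of all 20246 gene names was -0.07. The antisense RNAs ranged from -2.49 (EMC3-AS1) to 4.40 (UNC5B-AS1), and 320 stayed within 2-fold. A total of 196 differed by less than 0.486, the spread between probes of the same RNA. The antisense RNAs were also dimmer. Averaged over the 2 arrays, their median level was -0.76, and that of all gene names was 0.86.

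The split between higher and lower depended on how the arrays were scaled, since setting the arrays to another percentile or to the spike-in probes moves every difference by the same amount. It was 59 higher and 16 lower when the percentile was taken over detected probes only, and 37 higher and 35 lower when the arrays were set to equal medians. With the 8 detected spike-in probes set equal on both arrays it was 21 higher and 73 lower, and every difference was then lower by 0.46, so that a positive difference smaller than this changed sign. The median of all gene names was -0.53 on that scale. The antisense median stood 0.20 above that of all gene names under each of these. Such a shift cannot change this gap, so these settings are no check of it. Relative to all gene names the order was the same under 12 alternatives in scaling, background correction, filter and choice of probe, these shifts included. In each, the share higher was above and the share lower was below that of all gene names, and the median difference was higher by 0.0189 to 0.254. The smallest of these was without a filter on dim probes. The gap between the medians was 0.0953 with quantile normalization, 0.120 with loess on the mean signal and 0.113 with normexp background correction.

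**Figure D1:**
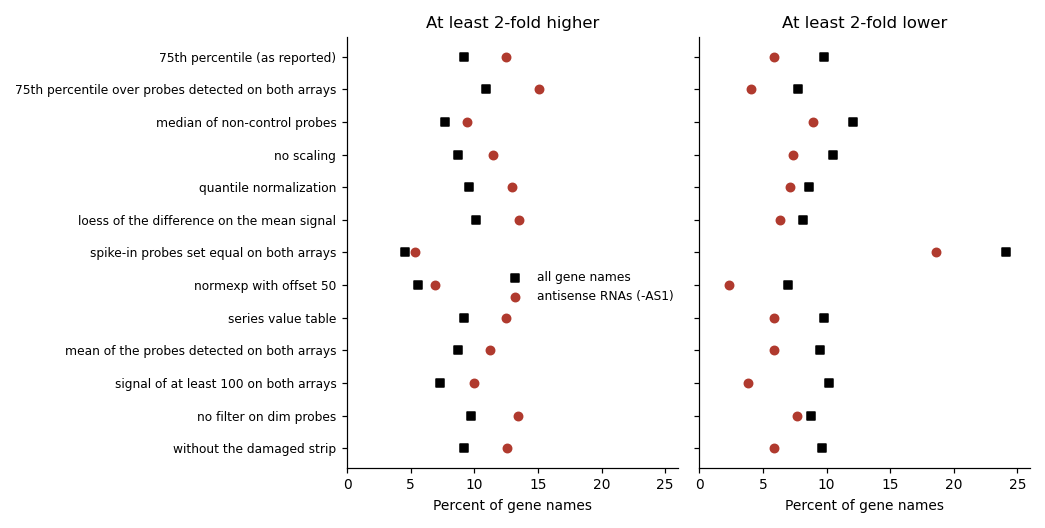
Percent of the antisense RNAs (red points) and of all gene names (black squares) 2-fold higher or more (left) and 2-fold lower or more (right) with the DLEU1 vector, under each way of processing the 2 arrays. The red points lie to the right of the squares on the left panel and to the left of them on the right panel, while both move together with the scaling, most of all with spike-in probes set equal (5.36% higher and 18.6% lower for the antisense RNAs).

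The sense partners were split about evenly. Of the 325 partners detected on both arrays, 34 (10.5%) were higher by at least 2-fold and 37 (11.4%) lower, and their median difference was -0.04. The split was 37 higher and 31 lower with the percentile over detected probes, 28 and 46 with equal medians, and 18 and 83 with spike-in probes set equal. A further 9 partners were detected on the DLEU1 vector array only, 2 on the control vector array only and 49 on neither, and 7 antisense RNAs had no probe for a gene of the name before -AS1. Among other noncoding names, the 283 long intergenic RNAs (LINC) had a median of 0.15, with 13.1% of them 2-fold higher or more and 4.95% lower by as much. The 18 small nucleolar RNA host genes (SNHG) had a median of -0.40, with 0 past 2-fold upward and 4 downward. For 31 other antisense names (-AS and -AS2 to -AS5) the median was 0.26, with 2 higher and 1 lower. No test of these differences between classes was possible.

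**Figure D2:**
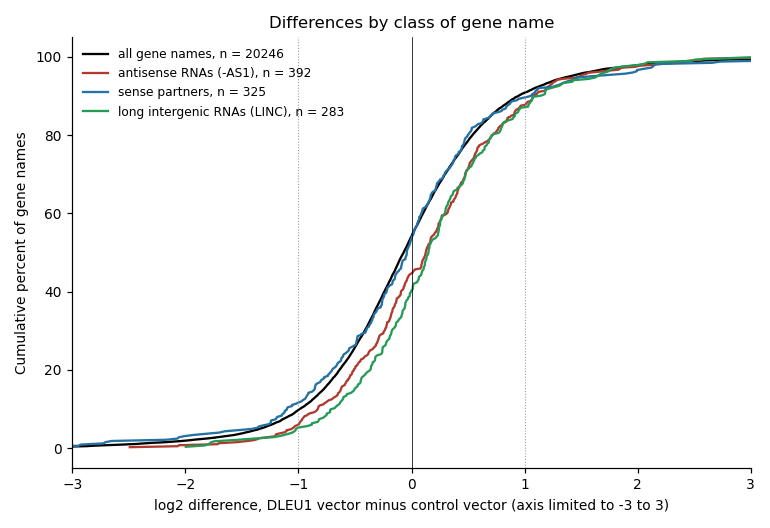
Cumulative percent of gene names (vertical axis) against the log2 difference, DLEU1 vector minus control vector (horizontal axis, from -3 to 3), for all 20246 gene names, the 392 antisense RNAs, the 325 sense partners and the 283 long intergenic RNAs. The antisense curve runs to the right of the curve of all gene names between the dotted lines at 2-fold, with medians of 0.13 and -0.07, and the partner curve lies close to that of all gene names (median -0.04).

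UNC5B-AS1 had the largest increase of the 392. Its level went from 1.04 (control vector) to 5.44 (DLEU1 vector), a difference of 4.40 from its only detected probe. Its partner UNC5B, a receptor for the guidance protein netrin, went from 3.59 to 5.21, a difference of 1.61, so both genes of this pair were higher. ID2-AS1 went from -2.92 to 0.12, a difference of 3.04, and its other probe gave 1.15. ID2, an inhibitor of helix-loop-helix transcription factors, went from 1.80 to 3.94, a difference of 2.14. Next came ZNF503-AS1 (-3.74 and -1.15, difference 2.58), PARD3-AS1 (-1.06 and 1.49, difference 2.55) and PIK3IP1-AS1 (-3.71 and -1.26, difference 2.45). Of their partners, ZNF503 differed by 0.67 and the cell polarity gene PARD3 by 0.45, both within 2-fold. PIK3IP1, an inhibitor of phosphatidylinositol 3-kinase, was detected with the DLEU1 vector only, where it was at least 10.6-fold higher.

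Further down the list of increases, most partners stayed within 2-fold, as did 254 of all 325 partners detected on both arrays. NEBL-AS1 (difference 2.39), SLC2A1-AS1 (2.02) and FLG-AS1 (1.84) had partners that were also at least 2-fold higher. KCNMA1-AS1 was higher by 2.25 (-3.10 and -0.85) beside a difference of 0.53 for KCNMA1, a calcium-activated potassium channel. BAALC-AS1 was higher by 2.35 beside 0.25 for BAALC. CCNT2-AS1 went from 1.74 to 3.87, a difference of 2.13, while CCNT2, the cyclin T2 subunit of a kinase that releases paused RNA polymerase II, differed by -0.20. ST7-AS1 was higher by 1.83 and ST7 differed by -0.66. CYP17A1-AS1 was higher by 1.73 and USP30-AS1 by 1.65, each beside a partner difference of 0.09, though USP30-AS1 was at 0.89 with normexp. Of the 49 antisense RNAs at least 2-fold higher, 7 had a partner that was not detected on both arrays or had no probe.

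The largest decrease was that of EMC3-AS1, from 0.24 to -2.25, a difference of -2.49. EMC3, a subunit of the complex that inserts proteins into the membrane of the endoplasmic reticulum, had a difference of 0.02. JRKL-AS1 was lower by 2.07 while JRKL differed by 0.63, in the opposite direction and within 2-fold. VIM-AS1 went from -0.28 to -2.34, a difference of -2.06 by its brighter probe, but its other detected probe gave -0.09. VIM, the intermediate filament vimentin of mesenchymal cells, differed by -0.97. ATP2A1-AS1 (-1.55), ATP6V0E2-AS1 (-1.47), IDI2-AS1 (-1.36), ATP6V1B1-AS1 (-1.35) and UBL7-AS1 (-1.27) followed. Of the partners of these, IDI2 and the proton pump subunit ATP6V1B1 were detected on neither array, and the calcium pump gene ATP2A1 was at least 1.82-fold lower with the DLEU1 vector. ELFN1-AS1 and GNAS-AS1 had differences of -1.21 and -1.20 beside 0.70 for ELFN1 and -0.45 for GNAS, which encodes the stimulatory G protein alpha subunit. THAP9-AS1 and FOCAD-AS1 were lower by 1.16 and 1.12, with partner differences of 0.31 and 0.37. With normexp background correction, several of these were within 2-fold: JRKL-AS1 was at -0.74, THAP9-AS1 at -0.74, ELFN1-AS1 at -0.69, IDI2-AS1 at -0.41 and FOCAD-AS1 at -0.28.

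**Figure D3:**
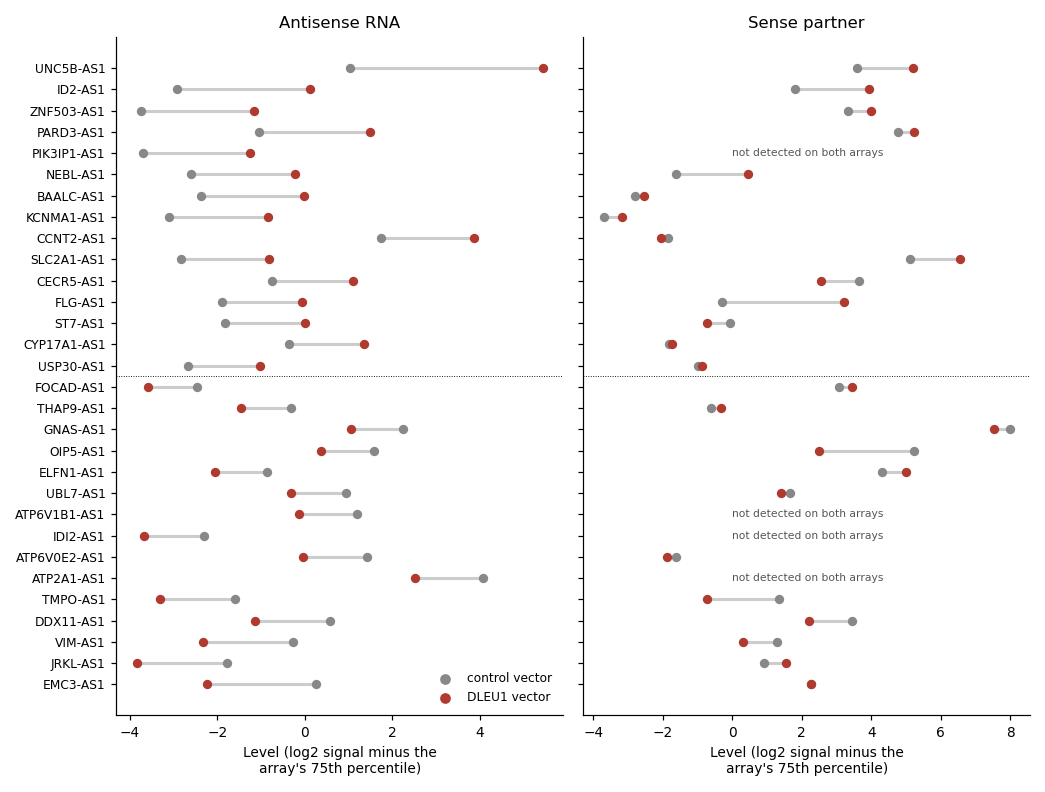
Levels on the control vector array (grey) and the DLEU1 vector array (red) of the 15 antisense RNAs with the largest increase (above the dotted line) and the 15 with the largest decrease (below it), with the sense partner of each on the right. TRIM52-AS1 and TRHDE-AS1, whose probes disagreed in sign, are left out. Levels are log2 signal minus the 75th percentile of the array. The grey and red points are far apart on the left for each RNA, by 1.12 to 4.40, and close together on the right for many of the partners, for example EMC3 (0.02) and USP30 (0.09). Over all pairs, 254 of 325 partners were within 2-fold.

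Pairs in which both genes were at least 2-fold different numbered 13 of 325, with 9 in the same direction and 4 in opposite directions. Among partners of the 42 antisense RNAs at least 2-fold higher, 14.3% were at least 2-fold higher and 7.14% lower. For the 17 at least 2-fold lower, the partner shares were 5.88% and 17.6%. Over all 325 partners they were 10.5% and 11.4%. The partner shares were thus above these in the direction of the antisense RNA and below them in the other direction. They rest on few pairs, 6 higher and 3 lower of 42, then 1 higher and 3 lower of 17, and no test was possible. In 46 pairs the antisense RNA alone was at least 2-fold different, in 58 the partner alone, and in 208 neither. Over all pairs, 182 (56%) had the same sign, and the correlation over pairs was 0.20 by both Pearson's r (0.202) and Spearman's rho (0.193). Without UNC5B-AS1 and ID2-AS1, the pairs farthest from the median antisense difference, Pearson's r was 0.166. These points share the 2 arrays and their scaling, and pairs are not replicates, so these values are descriptions only.

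**Figure D4:**
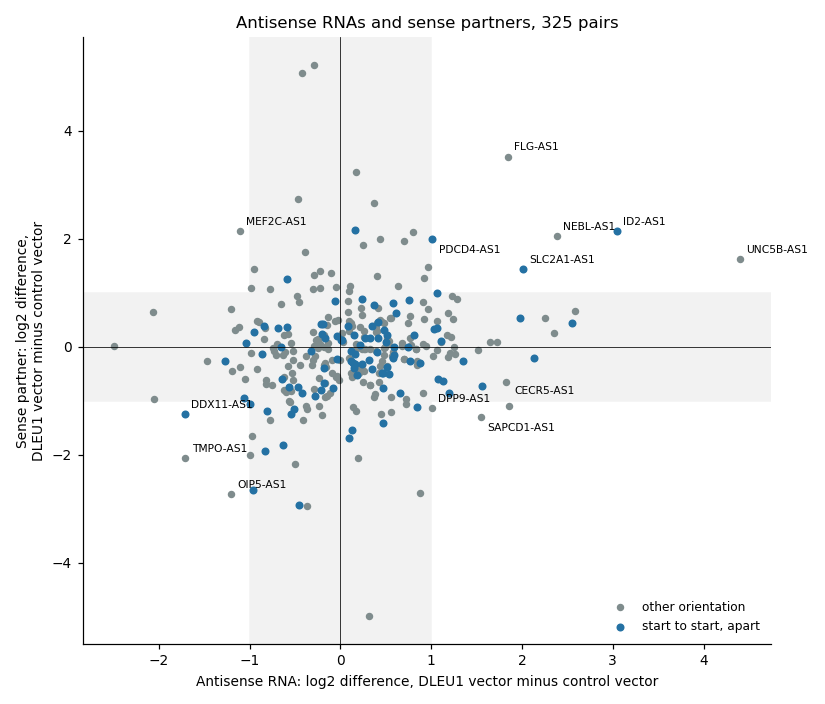
Log2 difference of each antisense RNA (horizontal axis) and of its sense partner (vertical axis) in 325 pairs. Blue points are pairs whose starts face away from each other without overlap, grey points are all other orientations, the shaded bands mark differences within 2-fold, and names are given for the 13 pairs outside both bands. In 9 of the 13 both genes lie on the same side of 0, and the partners with the largest differences, above 5 and near -5, lie over antisense differences within 2-fold.

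Besides UNC5B and ID2, another 4 pairs had both genes at least 2-fold higher. SLC2A1-AS1, now named SLC2A1-DT, went from -2.83 to -0.81, a difference of 2.02, and its other probe gave 2.30. SLC2A1, the glucose transporter GLUT1, went from 5.11 to 6.55, a difference of 1.44. FLG-AS1 (now CCDST) went from -1.90 to -0.06, a difference of 1.84. FLG encodes filaggrin, which binds keratin filaments in the outer layers of the epidermis, and went from -0.30 to 3.22, a difference of 3.52. NEBL-AS1 went from -2.61 to -0.22 and NEBL, encoding the actin-binding protein nebulette, from -1.62 to 0.44, with differences of 2.39 and 2.05. PDCD4-AS1 went from 0.71 to 1.73, a difference of 1.01 at the edge of 2-fold, and its other probe gave 0.32. PDCD4, an inhibitor of translation initiation, went from -0.15 to 1.84, a difference of 1.99.

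The 3 pairs in which both genes were at least 2-fold lower were those of TMPO, DDX11 and OIP5. TMPO-AS1 went from -1.61 to -3.31 and TMPO, a lamina-associated protein of the nuclear envelope, from 1.34 to -0.73, with differences of -1.71 and -2.07. DDX11-AS1, also known as CONCR, went from 0.58 to -1.13 and DDX11, a helicase needed for the cohesion of sister chromatids, from 3.45 to 2.20, with differences of -1.71 and -1.24. OIP5-AS1 went from 1.58 to 0.37, a difference of -1.20 by the brighter probe and of -0.22 by the other. OIP5, which helps to load the centromeric histone, went from 5.22 to 2.49, a difference of -2.72. With the mean of its probes OIP5-AS1 had -0.71 and was no longer 2-fold lower.

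In 4 pairs the genes were at least 2-fold different in opposite directions. MEF2C-AS1 went from -1.98 to -3.09, a difference of -1.11, and MEF2C, a transcription factor of muscle and other lineages, from -1.64 to 0.51, a difference of 2.15. The other 3 had a higher antisense RNA and a lower partner. CECR5-AS1 was higher by 1.85 (-0.75 and 1.10) and CECR5, now named HDHD5, was lower by 1.10 (3.65 and 2.54). SAPCD1-AS1 was higher by 1.55 (-3.08 and -1.53) and SAPCD1 was lower by 1.31. DPP9-AS1 was higher by 1.01 (2.43 and 3.44) and DPP9, a dipeptidyl peptidase, was lower by 1.13. Under 8 alternatives that can change these values (6 of scaling, normexp and the mean of probes), both genes stayed at least 2-fold different in all 8 for UNC5B, ID2, NEBL, FLG and DDX11, and in 7 for SLC2A1, TMPO, OIP5 and SAPCD1. For MEF2C it was 6, for CECR5 5, for DPP9 4 and for PDCD4 3. The 8 do not include the alternative that drops signals under 100. There the antisense RNAs of ID2, NEBL, FLG, SLC2A1, TMPO, SAPCD1 and MEF2C were too dim, so these pairs were lost. The pairs of UNC5B, DDX11, OIP5, CECR5, DPP9 and PDCD4 remained. With normexp MEF2C-AS1 was at -0.41, TMPO-AS1 at -0.64 and SAPCD1-AS1 at 0.65.

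Starts could be placed for most pairs through the gene models of RefSeq (GRCh38.p14), used here for neighbourhood and strand only. Of the 392 antisense RNAs, 105 started before the partner's start and ran away from it without overlap, with no limit on the distance. Of the rest, 119 overlapped the partner head to head, 72 overlapped it end to end, 69 lay inside the partner and 15 held the partner inside them. Another 4 lay end to end without overlap and 8 could not be placed. For 50 of the 392 the current symbol ends in -DT, for divergent transcript.

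Divergent pairs without overlap had the highest correlation of the classes given here, but no test of that difference was possible. Over 98 such pairs Pearson's r was 0.40 and Spearman's rho 0.29, and without ID2-AS1 and PARD3-AS1 they were 0.33 and 0.25. In 91 of the 98 the starts were at most 1000 bases apart, and over these r was 0.41 and rho 0.32. Over 103 pairs that overlapped head to head, r was 0.20 and rho 0.26, over 53 pairs with the antisense gene inside the partner 0.14 and 0.11, and over 56 pairs that overlapped end to end 0.04 and 0.01. The share of pairs with the same sign did not follow this order, at 54.1%, 62.1%, 50.9% and 57.1%. Among the 98 divergent pairs, 4 were at least 2-fold different the same way (ID2, SLC2A1, PDCD4 and DDX11) and 0 in opposite directions, and in 15 only the antisense RNA was at least 2-fold different.

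The bases between the 2 starts are shown for ID2 and SLC2A1, where both genes were higher, and for CCNT2, where the antisense RNA was higher and the partner was not, since all of this sequence lies before both genes. The sequences come from RefSeq promoters (GRCh38.p14) and are written on the strand of the sense gene, from the antisense start to the sense start. Capitals mark the CCAAT box (the letters CCAAT), the GC box (spelled as GGGCGG) and the TATA box (spelled as TATAAA), each on either strand.

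ID2 and ID2-AS1, chr2:8681864-8682055, plus strand: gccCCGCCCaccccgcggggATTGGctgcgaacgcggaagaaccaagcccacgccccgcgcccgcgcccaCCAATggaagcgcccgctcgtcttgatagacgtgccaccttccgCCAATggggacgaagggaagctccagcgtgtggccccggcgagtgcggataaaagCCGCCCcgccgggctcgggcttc
SLC2A1 and SLC2A1-AS1, chr1:42958869-42959048, minus strand: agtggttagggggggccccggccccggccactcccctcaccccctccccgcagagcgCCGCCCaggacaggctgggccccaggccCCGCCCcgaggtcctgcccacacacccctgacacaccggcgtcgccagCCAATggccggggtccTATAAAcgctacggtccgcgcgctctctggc
CCNT2 and CCNT2-AS1, chr2:134918607-134918821, plus strand: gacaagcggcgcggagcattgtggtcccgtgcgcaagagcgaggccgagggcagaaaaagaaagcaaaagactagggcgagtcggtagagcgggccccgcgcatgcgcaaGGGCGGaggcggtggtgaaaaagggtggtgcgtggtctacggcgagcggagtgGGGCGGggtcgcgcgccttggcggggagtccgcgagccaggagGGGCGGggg

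The ID2 interval of 192 bases held the CCAAT box 3 times and the GC box 2 times. The SLC2A1 interval of 180 bases held the CCAAT box 1 time, the GC box 2 times and the TATA box 1 time. The CCNT2 interval of 215 bases held the GC box 3 times and neither of the others. For scale, among windows of 192 bases before each of 35114 RefSeq starts, 27.3% held the CCAAT box, 39.7% the GC box and 8.28% the TATA box on either strand. The E-box letters CACGTG (in 5.32% of those windows), the AP-1 letters TGANTCA (in 5.23%) and the TCF letters TTTGAA (in 9.84%) were also searched and stood in none of the 3 intervals. These letters are a description of the windows and not of any factor bound there.

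Partners listed for the cell cycle, DNA replication or repair were grouped with earlier results of these data known, so their direction is no result. In this list 8 antisense RNAs were members and 7 had a partner detected on both arrays. Of the 7 partners, 4 were at least 2-fold lower, among them OIP5 (-2.72), PRC1 (-2.17) and TMPO (-2.07), 1 was at least 2-fold higher (TP73, 1.09), and the median was -2.07. Over all 325 partners, 11.4% were at least 2-fold lower and 10.5% higher. The antisense median was -0.36, with 2 at least 2-fold lower and CCNT2-AS1 higher. CCNT2 was on the list although its kinase acts on paused RNA polymerase II, and DDX11 was not on it. PRC1, which bundles microtubules in dividing cells, went from 6.00 to 3.83, while PRC1-AS1 differed by -0.50. TP73-AS1 differed by -0.22 by its brighter probe and 0.54 by the other, and MCM3AP-AS1 by -0.62 beside -0.56 for MCM3AP.

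Another 3 partners were chosen because they were among the lowest, so their direction is no result either. SGOL1, which protects cohesion at the centromere, was lower by 2.95 beside -0.37 for SGOL1-AS1. SPAG5, a spindle protein, was lower by 2.93 beside -0.45 for SPAG5-AS1. GTSE1 was lower by 2.65 beside -0.96 for GTSE1-AS1. All 3 antisense RNAs were within 2-fold.

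Epithelial and keratinocyte genes gave 4 pairs. Of the 4 partners, 3 were at least 2-fold higher, FLG, OVOL1 and TMPRSS4, where the share over all 325 partners was 10.5%. This list too was drawn up with earlier results of these data known. All 4 antisense RNAs had a positive difference, with a median of 0.62, but with spike-in probes set equal GATA6-AS1 was at -0.30 and TMPRSS4-AS1 at -0.03. OVOL1, a transcription factor of epithelial differentiation, went from 1.18 to 3.30, a difference of 2.12, beside 0.80 for OVOL1-AS1. TMPRSS4, a membrane serine protease, was higher by 1.99 beside 0.43 for TMPRSS4-AS1, now named SMIM35. GATA6 differed by -0.32 and GATA6-AS1 by 0.16. Outside the list, SCEL, encoding the cornified envelope protein sciellin, went from -1.68 to 3.39, a difference of 5.07, while SCEL-AS1 differed by -0.42. CALML3, a calmodulin-like protein of epithelial cells, was higher by 1.96 beside 0.70 for CALML3-AS1. Of the 7 squamous epithelial markers, KRT14 was higher by 2.85, KRT6A by 2.91, KRT5 by 2.10 and CDH1 by 1.04, TP63 differed by 0.96, SFN by 0.0015 and EPCAM by -0.78. The part of these in the pairs' values was not tested.

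Of the 36 antisense RNAs whose partner name starts like that of a transcription factor family, 5 were higher (13.9%) and 2 lower (5.56%) by at least 2-fold, around a median of 0.12, close to the shares over all 392 (12.5% and 5.87%). The list was drawn by the letters of the name, so it also held ELFN1, PAXIP1 and PAXBP1, which do not encode such factors. Of the 33 partners detected, 2 were higher by at least 2-fold (MEF2C and RORA) and 4 lower (TBX2, PAXIP1, LEF1 and NR2F1). TBX2 went from 0.33 to -1.48 and TBX2-AS1 from 2.35 to 1.72, with differences of -1.81 and -0.63. NR2F2-AS1 was higher by 1.20 by its brighter probe and 0.03 by the other, beside -0.11 for NR2F2. ZEB1, a repressor of epithelial genes, differed by -0.92 and ZEB1-AS1 by 0.56, with -0.06 by its other probe.

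Of the 6 antisense RNAs with an interferon or immune partner, 1 was higher and 0 were lower by at least 2-fold, and the median was 0.37. Of their 6 partners, 2 were at least 2-fold higher, SOCS2 (1.07), a suppressor of cytokine signalling, and IL21R (1.10), a cytokine receptor. The share over all 325 partners was 10.5%, and this list was also drawn up with earlier results known. SOCS2-AS1 differed by -0.78 and IL21R-AS1 by -0.05. HLA-F, a nonclassical class I gene, differed by 0.71 and HLA-F-AS1 by 0.41. PSMB8-AS1 was higher by 0.68 while PSMB8, a subunit of the immunoproteasome, differed by 0.02. TRIM52-AS1 was the member past 2-fold, with 1.98 by its brighter probe, but its other probe gave -0.33, and TRIM52 differed by 0.53.

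Of a list of 27 antisense names, 16 were members, of which 2 were at least 2-fold higher (FLG-AS1 and TRIM52-AS1), 3 at least 2-fold lower (OIP5-AS1, TMPO-AS1 and VIM-AS1) and 11 within 2-fold. The shares higher and lower were 12.5% and 5.87% over all 392 antisense RNAs, and 9.18% and 9.78% over all gene names. As given above, OIP5-AS1, VIM-AS1 and TRIM52-AS1 each had another probe within 2-fold. Among the 11 were MAFG-AS1 (-0.82), SMAD5-AS1 (-0.52), LEF1-AS1 (-0.38), TPT1-AS1 (-0.03), HIF1A-AS1 (0.44) and FOXD3-AS1 (0.50). FOXD3-AS1 went from 5.28 to 5.78, while FOXD3 itself was detected on neither array. Of their other partners, LEF1 was lower by 1.10 and MAFG differed by -0.62.

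Many of the large partner differences stood beside antisense RNAs within 2-fold, which 266 of the 325 pairs had whatever the partner's difference. SLCO4A1, an organic anion transporter, went from 3.13 to -1.86, a difference of -4.99, and SLCO4A1-AS1 from -1.45 to -1.13, a difference of 0.32. NUTM2B went from -2.38 to 2.84, a difference of 5.22, beside -0.29 for NUTM2B-AS1, and is uncertain because NUTM2 genes have near-identical copies. SDCBP2 was higher by 3.24 beside 0.17, VIPR1, a receptor for vasoactive intestinal peptide, by 2.73 beside -0.47, and ADIRF by 2.66 beside 0.37. In the 34 pairs with a partner at least 2-fold higher, the antisense median was 0.14, with 6 at least 2-fold higher and 1 lower. In the 37 pairs with a partner at least 2-fold lower it was -0.37, with 3 higher and 3 lower, and in the 254 other pairs it was 0.20, with 33 higher and 13 lower.

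Different probes of the same antisense RNA did not always give the same answer. Of the 392, 148 had more than 1 detected probe, and in 105 of these all probes had the same sign. No antisense RNA had probes 2-fold apart from 0 in opposite directions (0 of 148). Of the 23 that were called at 2-fold by the brightest probe and had more than 1, all probes had the same sign in 18 and all were at least 2-fold different in 7. RAB30-AS1 had 6 detected probes, 5 of them between -0.25 and 0.40 and the other at 1.95. NDUFA6-AS1 had 4, from -1.94 to 0.57. For 244 antisense RNAs the value rests on a single probe.

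**Figure D5:**
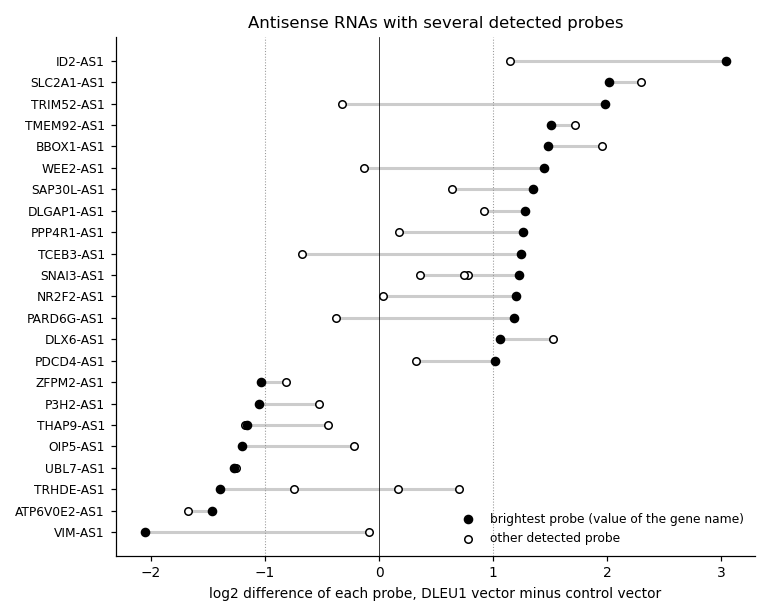
Log2 difference of every detected probe of the 23 antisense RNAs that had more than 1 and were at least 2-fold different by the brightest one. Filled points are the brightest probe, which gave the value, and open points are the others, with dotted lines at 2-fold. The probes of UBL7-AS1 (-1.27 and -1.25) and SLC2A1-AS1 (2.02 and 2.30) lie close together, and those of TRIM52-AS1 (-0.33 and 1.98) and VIM-AS1 (-2.06 and -0.09) lie far apart.

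By position, chromosome 10 held 40 of the antisense RNAs and 10 of the 49 that were at least 2-fold higher, against 2 of the 23 lower. The 10 were UNC5B-AS1, ZNF503-AS1, PARD3-AS1, NEBL-AS1, KCNMA1-AS1, CYP17A1-AS1, SGMS1-AS1, ZMIZ1-AS1, JMJD1C-AS1 and PDCD4-AS1. Of 33 partners on this chromosome, 7 were at least 2-fold higher and 0 lower. Over all 825 gene names on chromosome 10 the share at least 2-fold higher was 8.97%, the share at least 2-fold lower 10.9%, and the median was -0.09. Chromosome 3 held 41 antisense RNAs, with 1 at least 2-fold higher and 2 lower. Over all 1059 gene names on chromosome 3 the shares were 9.82% and 7.55%. Both chromosomes were singled out after their counts were seen.

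Some antisense RNAs were detected on 1 array only and so were not members. Of the 37 detected on the DLEU1 vector array only, 14 (37.8%) were at least 2-fold higher there than the detection limit or their own signal on the other array, where the share over all 1232 gene names detected on that array only was 35.6%. MAPT-AS1 was at least 18.4-fold higher, beside 0.74 for MAPT, the gene of tau. GATA3-AS1 was at least 4.86-fold higher, and GATA3, a transcription factor of epithelial and immune cells, was higher by 2.27. CDKN2B-AS1 was at least 2.23-fold higher, and CDKN2B, an inhibitor of cyclin-dependent kinases, was higher by 1.52. Of the 26 detected on the control vector array only, 6 (23.1%) were at least 2-fold lower with the DLEU1 vector, where the share over all 1055 such gene names was 26.5%. PCNA-AS1 was at least 2.59-fold lower, and PCNA, the sliding clamp of DNA polymerases, was lower by 1.95. BHLHE40-AS1 was at least 2.09-fold lower, while BHLHE40 was higher by 1.52.

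The members just inside the detection limit were LMCD1-AS1, RMDN2-AS1 and JRKL-AS1, whose dimmer signals were 15.5, 15.5 and 16.4. The brightest names outside it on their undetected array were ROR1-AS1 (18.1), RTCA-AS1 (16.8) and FAM212B-AS1 (16.0), so the signals on either side of the limit overlapped. Of the 72 antisense RNAs at least 2-fold different, 43 had a signal under 100 on at least 1 array, JRKL-AS1 and ID2-AS1 among them. Of all 392 antisense RNAs, 183 had such a signal. Over the 209 antisense RNAs that reached a signal of 100 on each array, 21 were at least 2-fold higher and 8 lower, or 10% and 3.83%. Over the 14112 gene names that passed the same filter the shares were 7.27% and 10.2%.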

How the data were processed

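Ca9-22 cells with a DLEU1 vector and with a control vector were measured on 1 Agilent 1-colour array each. The deposited intensity values were made by the authors with Agilent Feature Extraction (10.7 in the submitters' processing notes, 10.7.3.1 per the file headers), which removed a fitted spatial background and a multiplicative trend, and the authors' series values were the same intensity, rounded, within 0.497%. Neither was normalized between arrays, and probe positions were hg19. The authors used GeneSpring, with no test or threshold stated in the sources used here.

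Here, control and outlier spots were left out, log2 processed signals were averaged over the spots of a probe, and the 75th percentile of the 58201 non-control probes (7.92 with the control vector, 7.88 with the DLEU1 vector) was subtracted. A probe was detected where most of its spots were well above background (27731 and 27969 probes). A gene name took its brightest probe detected on both arrays. A name detected on 1 array got an "at least" fold against its own signal on the dim array or, if greater, the dimmest detected signal there. Partners were matched by name (384) or through another symbol (1). Of the members' names 314 matched a current RefSeq symbol, 76 an older one and 2 none.

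Groups came from the labels. With 1 array per group no test was run. Counts used 2-fold. Named genes were the 15 largest differences each way whose detected probes had the same sign, outside the damaged strip, with their partners, both genes of every pair at least 2-fold different, and 16 antisense RNAs on a list of 27 names. Others were named after their values were seen. The members, lists and rules were chosen with earlier results of these data known. A total of 15 alternatives were run (normexp offset 50, loess span 0.3, Python 3.11.15, R 4.3.3, limma 3.58.1). The counting was also run on simulated data, as a check of the code only. Its noise was the spread between repeat spots, without that between probes or cultures, and all planted differences were past 2-fold. The values of 1 pair and of 1 marker are not reported here.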

Additional observations from a re-analysis of the deposited data

How the results depend on the processing

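No paired analysis was possible because each group had 1 array. Each count below is for antisense RNAs first and sense partners second. A pair of medians gives the median difference of the antisense RNAs and the median difference of the sense partners. With spike-in probes set equal the counts were 21 higher and 73 lower, then 18 higher and 83 lower, the medians were -0.336 and -0.505, and 30 pairs were past 2-fold the same way. With equal medians 35 antisense RNAs were lower, the medians were 0.0135 and -0.155, and 14 pairs were past 2-fold the same way. With the percentile over detected probes the medians were 0.238 and 0.0696, with 2 pairs opposite. Quantile normalization and loess gave partner medians of 0.0545 and 0.0767 and 14 pairs past 2-fold the same way each. Normexp gave 27 antisense RNAs higher, 9 lower and 1 pair opposite. A signal of 100 or more gave 21 higher and 8 lower, then 13 higher and 18 lower, with 91 pairs of the same sign, 4 past 2-fold the same way and 2 opposite. Without a filter on dim probes the counts were 113 higher and 65 lower, then 106 higher and 77 lower, with a partner median of 0.0407, 459 pairs of the same sign, 29 past 2-fold the same way and 14 opposite. At 1.5-fold they were 91 and 64, then 57 and 78, with 40 and 22 pairs, and at 3-fold 16 and 5, then 17 and 14, with 5 and 0 pairs. The cause of these shifts was not tested. Other settings stayed within 1.5 times each count.

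For the 88 named genes, 1023 values were computed under alternatives. Of 589 values of genes at least 2-fold different, 0 changed sign and 32 were under 2-fold. The 0 was in part fixed in advance, since a shift of at most 0.46 cannot reverse a difference of 1 or more. The ranked antisense RNAs were also chosen for probes of the same sign, so the mean of their probes could not reverse them. Of the genes within 2-fold, 13 changed sign in 21 values, EMC3 and CYP17A1 among them. Signal over background limits the dim antisense RNAs: 43 of the 72 at 2-fold had a signal under 100 on at least 1 array, as did 183 of all 392.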
